A study of Zea mays with 6 samples.

Results

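The levels of 4 maize aquaporin genes were described across the 6 arrays of the series: pip2f and pip2c, whose proteins belong to the plasma membrane intrinsic protein (PIP) subfamily, and tip2a and tip4d, which belong to the tonoplast intrinsic protein (TIP) subfamily of the vacuolar membrane. Every probe set annotated to 1 of these 4 names, by symbol or by synonym through its gene identifier, was taken. This gave 5 probe sets, 2 of them for pip2c, out of 17734 on the array and out of the 36 probe sets that stand for 28 aquaporin genes. The 4 genes were chosen by their measured differences in signal between the groups on these same arrays. Their values are therefore given as a description, with no test, and the tests below concern the 24 other aquaporin genes.

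The arrays measured total RNA from mesocotyls of maize inbred line 3681-4 at 10 days after sowing, with all plants sown 20 cm deep and kept in darkness. The mesocotyl is the stem segment between the seed and the coleoptile base that carries the shoot of a grass seedling to the soil surface. One group received GA3, a gibberellin that promotes stem elongation, another received UCZ, which the series names as an inhibitor of gibberellin biosynthesis, and the third was the control. Each group had 2 arrays called biological replicates, from separate experiments, and this small number of arrays sets how precise the values can be. The labels give no dose, treatment time or solvent, nor how many plants went into an RNA sample.

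Aquaporins are membrane channels that let water pass along an osmotic gradient. PIP proteins sit in the plasma membrane, where those of the PIP2 group conduct water well and those of the PIP1 group often reach the membrane only together with a PIP2 partner. TIP proteins sit in the membrane of the vacuole, which fills most of an expanding plant cell, so growth by water uptake engages both membranes. Some other members of the superfamily carry small solutes, among them the NIP2 channels for silicic acid (NIP, nodulin 26-like), while the SIP proteins (small basic) lie in inner membranes.

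All values are signal intensities of a probe set on a linear scale, and differences are on the scale of log2(signal + 16), where the added constant shrinks differences of dim genes. A signal of 1 probe set cannot be set against that of another, so the genes are compared only by how each differs between groups. The 3 comparisons share arrays and are therefore not independent of each other. In whole-organ RNA, fewer cells of a type and less RNA per cell cannot be told apart.

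The clearest spread across the 3 groups was that of pip2f (also PIP2-6), a PIP2 water channel. Its signal was 832 and 1014 in GA3 replicates 1 and 2, 205.7 and 237.1 in UCZ, and 371.8 and 356.9 in control. The groups did not overlap and stood in the order GA3, control, UCZ. GA3 exceeded control by a log2 difference of 1.30 (SE 0.151), or 2.46-fold, and within replicates 1 and 2 the difference was 1.13 and 1.47. UCZ was below control by a log2 difference of −0.68 (SE 0.151), a 1.61-fold lower level. GA3 and UCZ were 1.98 apart on the log2 scale (SE 0.151), or 3.95-fold, with 1.94 and 2.02 in replicates 1 and 2.

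The other plasma membrane gene, pip2c (also PIP2-3), kept that order with smaller steps. Its brighter probe set gave 2738 and 2864 in GA3, 1351 and 1638 in UCZ, and 2271 and 2332 in control, again with no overlap between groups. The log2 difference was 0.28 for GA3 minus control (SE 0.126), −0.62 for UCZ minus control and 0.91 for GA3 minus UCZ, the last being 1.87-fold. The log2 difference of pip2f for UCZ minus control, less that of pip2c, was −0.06 in replicate 1 and −0.05 in replicate 2, so both lay below control by similar amounts. In GA3 against control pip2f exceeded pip2c in its difference by 0.86 and 1.17.

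The second probe set of pip2c shared the lower level in UCZ but not the higher level in GA3 than in control. It is of the type that the manufacturer marks as matching transcripts of more than 1 gene. It read 2404 and 1931 in GA3, 1962 and 1538 in UCZ, and 2619 and 1993 in control. Replicate 1 was higher than replicate 2 in every group, and across replicates GA3 overlapped with both of the others. Its log2 difference was −0.08 for GA3 minus control (SE 0.188), opposite in sign to that of the brighter probe set. For UCZ minus control it was −0.39, with −0.41 and −0.37 in replicates 1 and 2. For GA3 minus UCZ it was 0.31, and within replicates 1 and 2 it was 0.29 and 0.33, so GA3 lay above UCZ in both experiments, as for the brighter probe set. The GA3 level of pip2c relative to control therefore rests on 1 of its 2 probe sets.

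The vacuolar gene tip2a (also TIP2-1) stood apart in UCZ, while its GA3 and control arrays overlapped. Its signal was 6888 and 8150 in GA3, 3168 and 2362 in UCZ, and 7719 and 6995 in control. Both UCZ arrays lay below all others. UCZ was below control by a log2 difference of −1.42 (SE 0.158), a 2.68-fold lower level, with −1.28 and −1.56 in replicates 1 and 2. GA3 minus control was 0.03 (SE 0.158), with replicate 1 at −0.16 and replicate 2 at 0.22, and GA3 minus UCZ was 1.45, or 2.73-fold.

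The other vacuolar gene, tip4d (also TIP4-4), showed a further pattern, in which GA3 stood apart. Its signal was 98.15 and 86.05 in GA3, 179.5 and 137.4 in UCZ, and 153.9 and 162.4 in control. The GA3 arrays lay below all others, and the UCZ arrays overlapped with control. GA3 was below control by a log2 difference of −0.69 (SE 0.176), a 1.61-fold lower level, with −0.57 and −0.81 in replicates 1 and 2. UCZ minus control was −0.01 (SE 0.176) and GA3 minus UCZ was −0.68. This is the dimmest of the members, and adding 1 or 64 in place of 16 gave −0.78 or −0.51 for GA3 minus control.

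**Figure D1:**
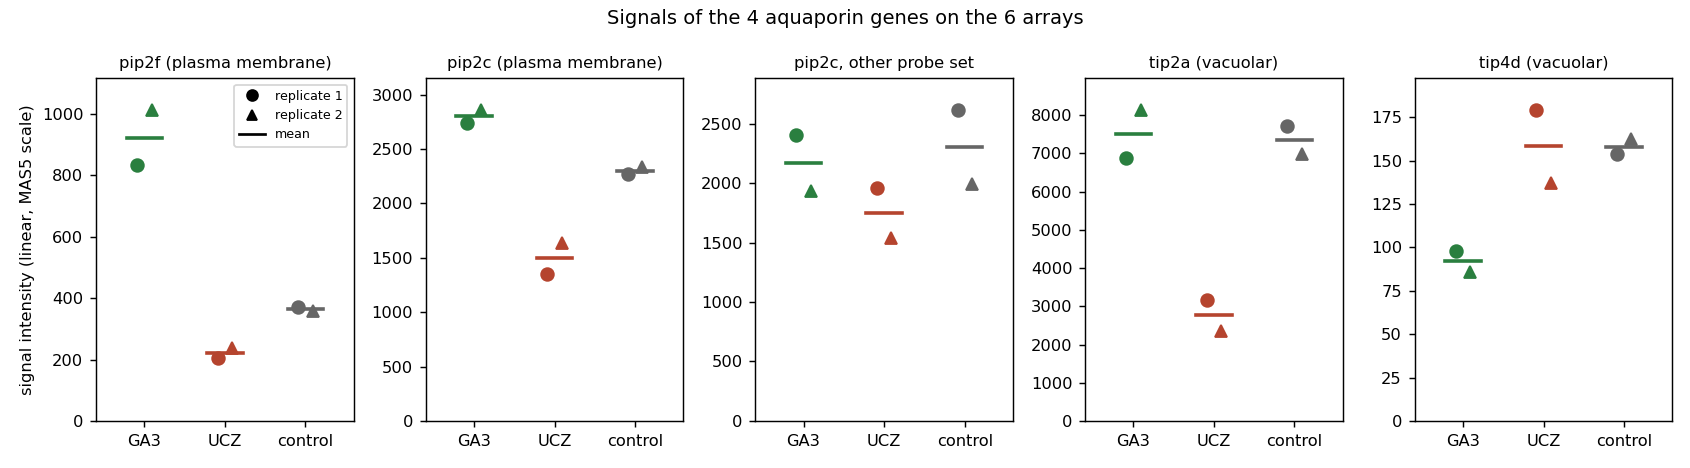
Signal intensity (linear, from 0) of the 5 probe sets of pip2f, pip2c, tip2a and tip4d in GA3, UCZ and control, with 1 point per array and a bar at the group mean of 2 arrays. GA3 is highest for pip2f, with 832 and 1014, UCZ is lowest for tip2a, with 3168 and 2362, and GA3 is lowest for tip4d, with 98.15 and 86.05, while on the second pip2c probe set replicate 1 is above replicate 2 in every group and UCZ is lowest within each replicate.

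Counted by group overlap, 2 of the 4 genes had both GA3 arrays above both control arrays (21.6% of the 10573 probe sets kept did so) and 1 had them below (18.5%). In UCZ against control 3 of the 4 lay below (32.7%) and none above (28.3%). In GA3 against UCZ 3 lay above (32.3%) and 1 below (25.2%). These counts use the comparisons from which the genes were chosen, and nothing is read from them.

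Setting plasma membrane against vacuolar members within each array removes any scaling that acts on a whole array. The mean log2 level of pip2f and pip2c, minus that of tip2a and tip4d, differed by 1.12 between GA3 and control, with 1.07 and 1.17 in replicates 1 and 2. Between UCZ and control it differed by 0.06, and the replicates disagreed in sign, at −0.24 and 0.36. Between GA3 and UCZ it differed by 1.06, with 1.30 and 0.82 in replicates 1 and 2.

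These means hide a split between the vacuolar genes, so they do not describe a property of the subfamilies. Against tip2a, pip2f was relatively higher in all 3 comparisons, by 1.27 for GA3 minus control, 0.74 for UCZ minus control and 0.53 for GA3 minus UCZ. Against tip4d, pip2f was relatively higher in GA3 than in control by 1.99 and relatively lower in UCZ than in control by −0.68. The vacuolar pair itself moved apart, since tip2a minus tip4d differed by 0.72 for GA3 minus control and by −1.41 for UCZ minus control (−1.48 and −1.34 in replicates 1 and 2). Without tip4d, an alternative chosen after the values were seen, the plasma membrane minus vacuolar difference was 0.76 for GA3 minus control, 0.77 for UCZ minus control and −0.01 for GA3 minus UCZ. The split by membrane in the last 2 comparisons thus depends on which vacuolar gene is used.

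The scaling of the arrays bears on UCZ in particular. Bacterial transcripts with a poly-A tail, which serve on this array type as controls spiked into the RNA, had a mean log2 signal of 8.35 and 7.82 in GA3, 8.99 and 8.72 in UCZ, and 8.37 and 8.06 in control over 12 probe sets. Scaling each array to them moved the median probe set by −0.667 in UCZ minus control and by 0.809 in GA3 minus UCZ, against −0.026 and 0.04 with the deposited scaling. Under it UCZ minus control shifted downward by the same amount for every gene. The differences of pip2f, pip2c and tip2a there, already below 0, thus became −1.32, −1.26 and −2.06. For tip4d GA3 minus UCZ turned from −0.68 to 0.09 and UCZ minus control became −0.65, while GA3 minus control was still below 0, at −0.56. The level of tip4d in UCZ relative to the other groups therefore depends on the scaling, and the lower level in GA3 than in control kept its sign under all 4 scalings.

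**Figure D2:**
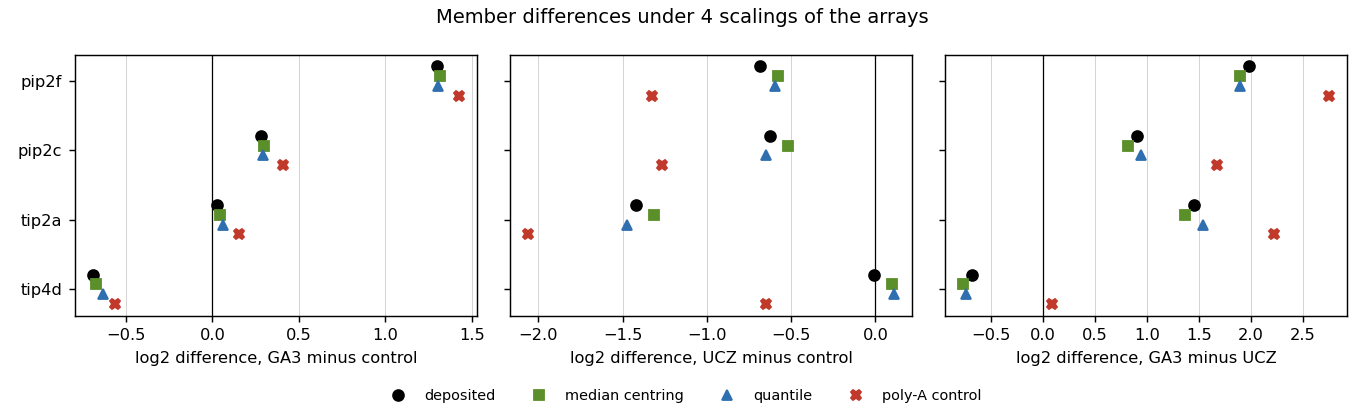
Log2 difference of pip2f, pip2c, tip2a and tip4d (brighter probe set) in the 3 comparisons under the deposited scaling, median centring, quantile normalization and scaling to the poly-A controls. The first 3 scalings nearly coincide, and the last shifts UCZ, so that tip4d in GA3 minus UCZ crosses 0, from −0.68 to 0.09.

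The 24 other aquaporin genes comprised 8 PIP, 8 TIP, 5 NIP and 3 SIP genes, each taken by its brightest probe set. Of these, 19 passed the filter on dim probe sets and were tested. The 5 left out, TIP1-2, TIP3-1, TIP3-2, TIP4-1 and TIP5-1, were all vacuolar, so only 3 other TIP genes were tested. TIP3-1, of a type known from seeds, had 246.4 and 153.2 in GA3, 56.37 and 24.87 in UCZ, and 172 and 101.8 in control, so that its UCZ arrays lay below all others. Its log2 differences were 0.50 for GA3 minus control, −1.45 for UCZ minus control and 1.95 for GA3 minus UCZ, beside 0.03, −1.42 and 1.45 for tip2a. The low UCZ values of TIP3-1 enter the mean by which it was left out. The remaining 4 did not exceed 33.3.

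In GA3 against control none of the 19 passed limma's test, where 1.32% of all probe sets tested were called, 0.482% higher and 0.842% lower. The median log2 difference of the 19 was −0.077, against 0.017 over all probe sets tested. With the replicate number as a block, which takes out the difference between the experiments, 3 were higher and 3 lower (background 8.19%, split into 3.09% and 5.1%). The higher ones were PIP1-5, TIP2-2 and TIP2-3, and the lower ones were the NIP2 channels NIP2-1, NIP2-2 and NIP2-3. The plasma membrane gene PIP1-5 came nearest without the block: its signal was 3048 and 3764 in GA3 against 2009 and 2039 in control, a log2 difference of 0.74 (SE 0.15, adjusted p = 0.0732, or 0.000476 with the block). TIP2-2, named like tip2a for the TIP2 group, had 1180 and 992.4 in GA3 against 888.8 and 557.3 in control, a log2 difference of 0.61 that did not pass without the block (adjusted p = 0.46, or 0.00884 with it). TIP2-3 had 230.8 and 173.4 in GA3 against 166.1 and 75.34 in control, a difference of 0.75 (adjusted p = 0.416, or 0.0174 with the block).

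In UCZ against control 4 of the 19 fell, none rose and 15 did not pass (21.1% called, background 15.4%, with 6.44% of all probe sets higher and 8.97% lower). The 4 were PIP2-2 and the channels NIP2-1, NIP2-2 and NIP2-3. NIP2-3, the silicon transporter Lsi6, had 302.9 and 171.5 in UCZ against 854.6 and 655.1 in control, a log2 difference of −1.64 (SE 0.297, limma adjusted p = 0.0122). NIP2-2 had 1054 and 860.2 in UCZ against 2683 and 2273 in control, a difference of −1.36 (adjusted p = 0.00323), and NIP2-1, the silicon transporter Lsi1, fell by 0.87 on the log2 scale (adjusted p = 0.0184). The log2 differences of NIP2-3 and NIP2-2 in UCZ minus control were thus near that of tip2a, −1.42. In GA3 minus control they were −0.73 and −0.38, beside 0.03 for tip2a, so the likeness was limited to UCZ against control.

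PIP2-2 was the only other PIP gene called there: its signal was 147.3 and 168.4 in UCZ against 252 and 239.1 in control, a difference of −0.59 (SE 0.143, adjusted p = 0.0322), near those of pip2c and pip2f. With the block 7 fell and 1 rose (background 34.6%, with 19.1% lower and 15.5% higher), the added falls being PIP1-5, PIP2-1 and TIP2-2 and the rise TIP2-3. The log2 difference of TIP2-3 was 0.49 with the deposited scaling and −0.16 under poly-A control scaling, so the direction of this rise depends on the scaling. The median log2 difference of the 19 was −0.19, against −0.026 over all probe sets. Under poly-A control scaling 9 fell and all 19 lay below 0, where 40.5% of all probe sets were called and the median probe set was also below 0. With the deposited scaling, leaving out 1 array gave log2 differences of −2.03 to −1.26 for NIP2-3 and −1.5 to −1.22 for NIP2-2. For NIP2-1 they were −1.03 to −0.7 and for PIP2-2 −0.68 to −0.5. Fewer of the 19 passed without control replicate 1, control replicate 2 or UCZ replicate 2, and fewer of all probe sets passed there too.

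In GA3 against UCZ 5 of the 19 were higher in GA3 and none lower (26.3% called, background 13.9%, with 7.61% of all probe sets higher and 6.33% lower), with a median log2 difference of 0.232 against 0.04 over all. Of these, 3 were plasma membrane genes. PIP1-5 had 3048 and 3764 in GA3 against 1455 and 1798 in UCZ, a log2 difference of 1.06 (SE 0.15, limma adjusted p = 0.00539). PIP2-2 differed by 0.78 (adjusted p = 0.0125) and PIP1-3/1-4, a gene that carries both names, by 0.46 (adjusted p = 0.0302). The 3 further probe sets of PIP1-3/1-4 that passed the filter went the same way, by 0.43, 0.49 and 0.61.

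The vacuolar gene TIP2-2 had 1180 and 992.4 in GA3 against 508.7 and 310.3 in UCZ, a difference of 1.41 (SE 0.279, adjusted p = 0.0171) beside 1.45 for tip2a. NIP2-2 differed by 0.98 (adjusted p = 0.00954). With the block NIP2-3 was also called, giving 6 higher and none lower (background 30.9%, with 17% higher and 13.9% lower). Leaving out 1 array gave log2 differences of 1.07 to 1.75 for TIP2-2, 0.82 to 1.14 for NIP2-2 and 0.91 to 1.21 for PIP1-5. For PIP2-2 they were 0.7 to 0.87 and for PIP1-3/1-4 0.38 to 0.53. Fewer of the 19 passed without UCZ replicate 2, GA3 replicate 1 or GA3 replicate 2, and fewer of all probe sets passed there too. Poly-A control scaling gave 13 higher, with all 19 above 0, where 63% of all probe sets were called.

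With the deposited scaling several bright aquaporin genes gave no call in any comparison, with the block or without. Under poly-A control scaling PIP1-1, PIP1-2 and TIP1-1 differed by 0.975, 0.557 and 0.857 in GA3 minus UCZ, beside 0.809 for the median probe set. PIP1-1 had 7635 and 8717 in GA3, 7046 and 7099 in UCZ, and 8115 and 8019 in control. PIP1-2 had 6117 and 7131 in GA3, 7458 and 7857 in UCZ, and 6857 and 7078 in control. The vacuolar TIP1-1 had 6350 and 8185 in GA3, 6156 and 7473 in UCZ, and 7718 and 7202 in control, so that its groups overlapped throughout. NIP1-1, at 1805 and 1520 in GA3, 2016 and 1854 in UCZ, and 1702 and 1619 in control, and the 3 SIP genes were not called either, with SIP log2 differences between −0.36 and 0.28. PIP2-1 was called in UCZ against control only with the block, with a log2 difference of −0.27.

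PIP2-1 is also the nearest aquaporin gene to pip2f along the chromosome, by RefSeq's annotation of Zm-B73-REFERENCE-NAM-5.0, with 2 annotated genes between them, and the pair differed in level pattern. PIP2-1 read 5376 and 6251 in GA3, 4984 and 5704 in UCZ, and 6177 and 6666 in control, and its log2 difference for GA3 minus UCZ was 0.12, against 1.98 for pip2f. No other member lay within 10 genes of another aquaporin gene on the list.

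**Figure D3:**
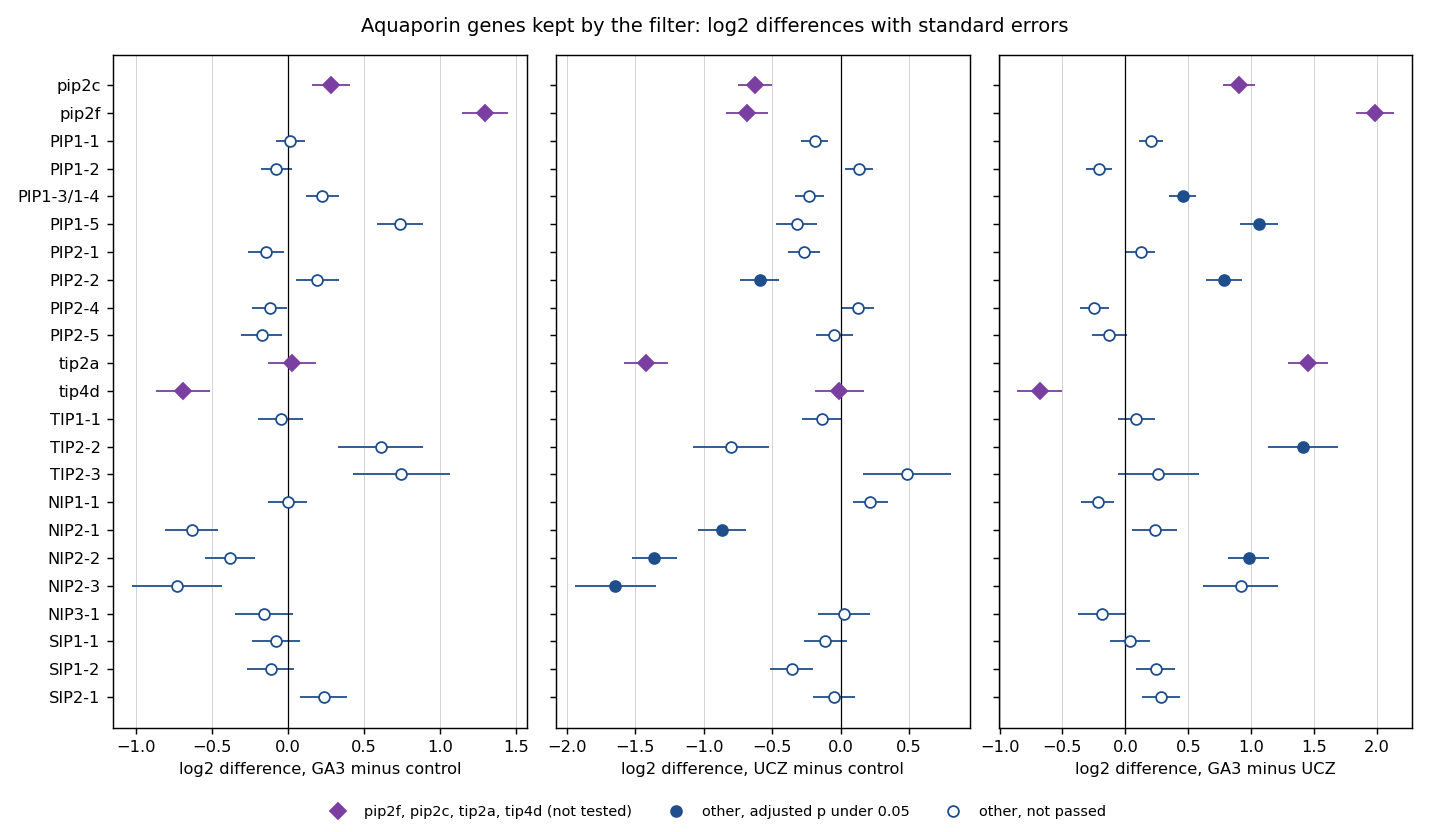
Log2 difference with its standard error for the 23 aquaporin genes kept by the filter, in GA3 minus control, UCZ minus control and GA3 minus UCZ, with 2 arrays per group. Diamonds are pip2f, pip2c, tip2a and tip4d, which were not tested, and filled circles are other genes with an adjusted p under 0.05: none in the first panel, 4 below 0 in the second and 5 above 0 in the third.

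Water follows solutes, and the pumps and channels that load them were taken as a further list of proton pumps and potassium channels. Of 7 genes measured, 4 passed the filter. In GA3 against control none passed (limma, background 1.32%), and 1 was lower with the block (background 8.19%). In UCZ against control 2 fell, none rose and 2 did not pass (background 15.4%). The vacuolar proton pyrophosphatase vpp1 had 1997 and 1702 in UCZ against 3721 and 3513 in control, a log2 difference of −0.97 (SE 0.119, adjusted p = 0.00335). The potassium channel gene ZMK2 had 67.14 and 60.62 in UCZ against 133.2 and 171.4 in control, a difference of −1.07 (adjusted p = 0.00901). The higher GA3 and control values of ZMK2 enter the mean by which it was kept. ZMK2 did not pass the filter with the brightest 40% of probe sets, nor without control replicate 2 or GA3 replicate 2.

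Both genes were higher in GA3 than in UCZ (background 13.9%), vpp1 by 0.58 (adjusted p = 0.0188) and ZMK2 by 1.05 (adjusted p = 0.00981). Without UCZ replicate 2 both of these calls, and that of ZMK2 in UCZ against control, missed the threshold, with adjusted p up to 0.113; vpp1 in GA3 against UCZ also missed it without GA3 replicate 1 and without GA3 replicate 2. The plasma membrane proton pump genes mha1 and mha4 did not pass in any comparison: mha4 had 2370 and 2403 in GA3, 2122 and 2248 in UCZ, and 2223 and 2665 in control.

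The labels name the mesocotyl, for which no single defining marker gene was at hand, and genes of other organs were read beside the aquaporins. All 10 leaf photosynthesis genes measured passed the filter, and their summed signal was 45430 and 50950 in GA3, 62110 and 66340 in UCZ, and 61350 and 63140 in control. In GA3 against control all 10 lay below 0, and 2 fell (background 1.32%), namely me3, an NADP-malic enzyme, and pdk1, a pyruvate phosphate dikinase. Each gene was taken by its brightest probe set. Of the dimmer pdk1 probe sets that passed the filter, 2 were also below 0, at −0.77 and −0.78, and 1 was above, at 0.17. With the block 5 fell (background 8.19%). In UCZ against control 1 fell, again me3 (background 15.4%), and with the block 2 fell and 1 rose (background 34.6%). In GA3 against UCZ 4 were lower in GA3 (background 13.9%), and 9 were with the block (background 30.9%). This list thus was lower in GA3 together with tip4d, and its part in the tip4d values was not tested. Of 7 kernel genes 5 were dropped as dim, and the list sum of 264 and 229.7 in GA3, 488 and 424.1 in UCZ, and 245.6 and 202.9 in control came mainly from betl4 and gz27. The transfer-layer gene betl4 had 293.2 and 264.7 in UCZ against 90.91 and 59.61 in control. Its high UCZ values enter the mean by which it was kept. In UCZ minus control gz27 and dzs18 also lay above 0, with log2 differences of 0.36 and 0.24. Below 0 lay betl1, betl2, betl3 and fl2, at −0.15, −0.25, −0.15 and −0.42. The part of betl4 in the UCZ values of the aquaporins was not tested. The ratio of the 3′ to the 5′ probe set of actin, which rises where RNA is degraded, was 4.64 and 3.4 in GA3, 4.14 and 3.11 in UCZ, and 3.57 and 2.76 in control. It was higher in replicate 1 than in replicate 2 in each group, as was the second probe set of pip2c. So were NIP1-1, NIP2-1, NIP2-2, NIP2-3, TIP2-2, TIP2-3, TIP3-1, SIP1-1 and SIP2-1, several of which were called above. The brighter probe set of pip2c and PIP1-5 were instead higher in replicate 2 in each group. The part of RNA quality in these values was not tested.

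The genes whose levels over the 6 arrays were most like those of each member were found among 718 other named genes by Pearson's r of the log2 values. The arrays fall into 3 groups of 2, so a high r mostly means a like order of the groups, and it is given as a description. For pip2f the 3 nearest were a MADS-box gene annotated as AGAMOUS (r = 0.992), the phytase gene phyS11 (r = 0.989) and PIP1-5 (r = 0.986). Their log2 differences for GA3 minus control were 0.77, 1.47 and 0.74, beside 1.30 for pip2f. For pip2c they were the YABBY gene yabby15 (r = 0.995), PIP2-2 (r = 0.992) and the expansin expB8 (r = 0.989), with GA3 minus UCZ of 1.06, 0.78 and 1.57. Each plasma membrane member had another PIP gene among its 3 nearest. For pip2c this holds for its brighter probe set, whose r was 0.882 with tip2a and 0.473 with the second probe set of pip2c. The PIP genes did not all share this order: GA3 minus UCZ was 1.06 for PIP1-5, 0.78 for PIP2-2 and 0.46 for PIP1-3/1-4. For PIP1-1 and PIP2-1 it was 0.21 and 0.12, and for PIP1-2, PIP2-4 and PIP2-5 −0.21, −0.25 and −0.13.

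For tip2a they were the soluble invertase gene ivr2 (r = 0.994), the beta-tubulin TUBB2 (r = 0.991) and the cellulose synthase CesA-1 (r = 0.988). Their log2 differences for UCZ minus control were −1.28, −1.25 and −0.38, and those for GA3 minus control were 0.14, −0.06 and 0. For tip4d they were dxs1, an enzyme of plastid isoprenoid synthesis (r = 0.956), vp9 of carotenoid synthesis (r = 0.948) and the glutathione S-transferase gst6 (r = 0.939). These were lower in GA3 than in control by log2 differences of −0.38, −0.25 and −0.23, all smaller than that of tip4d. No aquaporin gene was among the 3 nearest to tip2a or tip4d, but only 3 other TIP genes passed the filter, against 8 other PIP genes.

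**Figure D4:**
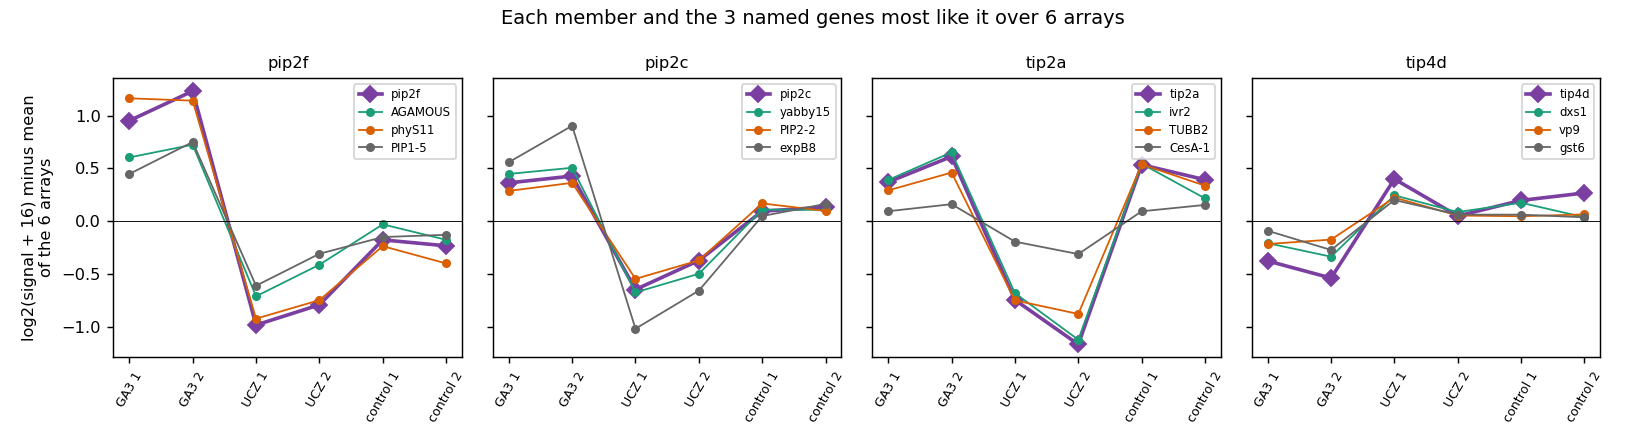
Log2(signal + 16) of each member and of the 3 named genes most like it, minus the mean of each gene over the 6 arrays, for GA3, UCZ and control replicates 1 and 2. The curves of pip2f and pip2c are highest in GA3 and lowest in UCZ, that of tip2a is low only in UCZ and that of tip4d is lowest in GA3, where its neighbours reach log2 differences from control of −0.38 to −0.23 and tip4d −0.69.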

How the data were processed

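The values are signal intensities per probe set on a linear scale, deposited by the authors and made with GCOS and MAS5, per the submitters' processing notes; neither version is given in these notes. With the lowest and highest 2% of probe sets removed, array means were 500.1 or 500.2, so the deposited values had been scaled to a common mean. Detection calls were not used here.

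After leaving out 113 control probe sets, 17621 remained. On the log2(signal + 16) scale, the brightest 60% by mean (10573) were retained, which included all 4 members. A model of group means on all 6 arrays (R 4.3.3 with limma 3.58.1, functions lmFit and eBayes, trended prior, two-sided) was adjusted by Benjamini-Hochberg over these, with a threshold of 0.05. Standard errors are from this fit. Names came from the platform annotation, which gives 1 gene for 1452 probe sets, with symbols and synonyms from RefSeq (1060 of 1108 genes found). Where the symbol was a LOC number, a synonym was used. No amino acid or promoter sequences were used here.

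The design text names independent experiments and the replicate numbers occur in each group, so they were taken as pairs: deviations from the group means correlated at 0.664 for GA3 with control, 0.724 for UCZ with control and 0.755 for GA3 with UCZ. The main fit and its standard errors did not use this pairing, and the replicate block was run as an alternative.

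The members and gene lists were chosen with earlier results of these data known. Other aquaporins were named where called in at least 1 comparison or among the brightest 3 of their subfamily. For each member the 3 most similar genes were named, and of pumps and channels those called. The dim TIP genes, the pump genes without a call and the leaf and kernel genes stand outside this rule and were chosen after seeing values. The list pattern for potassium channels also caught a kaurene synthase and that for leaf genes a kinase, and both were removed by name. The fit without the block was run on simulated data, with independent noise on each array and differences added to UCZ only. Those data lack the pairing of the experiments, so they do not show how the fit behaves with it. Figures used matplotlib 3.10.9 in Python 3.11.15.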

Additional observations from a re-analysis of the deposited data

How the results depend on the processing

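Alternatives were the replicate block, other scalings, adding 1 or 64, other filters, a variance prior without trend, only the groups compared, any probe set of a gene, and leaving out each array. Array numbers limit all of this. With the replicate block, 6 aquaporin genes were called in GA3 against control (0 without it, background 8.19%). In UCZ against control 8 were (4 without it, background 34.6%), and in GA3 against UCZ 6 were (5 without it, background 30.9%). With the brightest 40% of probe sets 2 were called in UCZ against control (background 17.1%). Poly-A control scaling gave 9 in UCZ against control and 13 in GA3 against UCZ, where 40.5% and 63% of all probe sets were called. Leaving out 1 array leaves 1 array in a group. It gave no more aquaporin calls than all 6 arrays did in any comparison, and fewer calls over all probe sets. The 13 calls of single aquaporins, vpp1 and ZMK2 made without the block kept their sign under the alternatives run, but 31 of 199 repeats missed the threshold, most often PIP1-3/1-4 in GA3 against UCZ (adjusted p up to 0.146) and PIP2-2 in UCZ against control (up to 0.145). The 199 repeats leave out those in which the gene did not pass the filter. These were ZMK2, NIP2-1 and PIP2-2 with the brightest 40% of probe sets, and ZMK2 without control replicate 2 or GA3 replicate 2. Poly-A control scaling could only enlarge the 13 differences, since it lowers UCZ by the same amount for every gene. TIP2-3, called only with the block, turned to −0.16 in UCZ minus control under poly-A control scaling.

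Under poly-A control scaling pip2f, pip2c, tip2a and tip4d had log2 differences of −1.32, −1.26, −2.06 and −0.65 in UCZ minus control and 2.75, 1.67, 2.22 and 0.09 in GA3 minus UCZ, the last reversed. In GA3 minus control pip2c had 0.41 and tip4d −0.56. Median centring gave −0.58 for pip2f in UCZ minus control. Adding 1 gave −0.78 for tip4d in GA3 minus control, and adding 64 gave −0.51 there, 1.79 for pip2f in GA3 minus UCZ and 0.98 for plasma membrane minus vacuolar members in GA3 minus control. The other probe set of pip2c, chosen after seeing the data, gave −0.08 in GA3 minus control, −0.39 in UCZ minus control and 0.31 in GA3 minus UCZ, and 0.94 for plasma membrane minus vacuolar members in GA3 minus control. Without tip4d that measure was 0.76 in GA3 minus control, 0.77 in UCZ minus control and −0.01 in GA3 minus UCZ.

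Leaving out 1 array gave ranges, in UCZ minus control, of −0.78 to −0.59 for pip2f, −0.76 to −0.49 for pip2c, −1.63 to −1.21 for tip2a, −0.18 to 0.17 for tip4d and −0.25 to 0.37 for plasma membrane minus vacuolar members, and 1.05 to 1.19 for the last in GA3 minus control. In GA3 minus UCZ the ranges were 1.84 to 2.12 for pip2f, 0.77 to 1.04 for pip2c, 1.24 to 1.66 for tip2a and −0.86 to −0.51 for tip4d.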
